A study of Mus musculus with 24 samples.

Results

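Ribosome biogenesis and RNA polymerase I were followed in mouse macrophages through 49 genes of the 11590 in the deposited count table. The genes were taken by name, as every gene whose symbol begins with Nop, Nol, Rrp or Utp and a number (Nol3 left out) or with Polr1, together with Mdn1, Fbl, Ncl, Npm1, Wdr12, Bop1, Pes1, Wdr43 and Myc. By role they comprised 5 subunits of RNA polymerase I, 4 core proteins of the small nucleolar ribonucleoproteins (snoRNPs), 22 factors of small-subunit assembly, 13 factors of large-subunit assembly, the abundant nucleolar proteins Ncl and Npm1, the transcription factor Myc, and 2 further genes that match the name pattern, Nol12 and Nol4l. The rule reads names and no measured value, though it was set with earlier results of these data known. All 49 passed the filter on low counts, which removed no gene of the table. The smallest total of any gene in the table was 170 counts. Genes with lower totals are therefore absent from it and from every share of all genes given below.

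Ribosomes are built in the nucleolus. RNA polymerase I transcribes the long precursor of the ribosomal RNAs, snoRNPs guide its chemical modification, a large particle known as the small-subunit processome folds and cleaves its 5′ part, and a series of assembly factors and ATPases matures the large subunit. Many of the genes concerned are known targets of Myc, which binds the E-box sequence CACGTG, and growth-promoting or activating stimuli are known to raise their transcription in macrophages and lymphocytes.

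Polyadenylated RNA was sequenced from macrophages that had been grown in M-CSF from the bone marrow of C57BL/6 males and treated on day 7 for 4 h. Wild-type (WT) and GPR35-deficient (KO) cells were each left untreated, given 10 µM lysophosphatidic acid (LPA), a lipid mediator, or given 10 ng/mL lipopolysaccharide (LPS), a bacterial ligand of the receptor TLR4, which made 6 groups of 4 libraries. The series asks whether GPR35, a G protein-coupled receptor, carries the transcriptional response to LPA. The labels number the replicates but do not say whether they came from separate mice, so the p-values measure the spread between these libraries, and they do not say how GPR35 was inactivated.

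Gpr35 was measured first as a check of the labels. Its level was 2.60 ± 0.21 CPM (counts scaled to library size with TMM factors; SD, n = 4) in WT untreated, 2.07 ± 0.70 in WT LPA and 0.42 ± 0.15 in WT LPS libraries, against 0.13 ± 0.07 in KO untreated and 0.11 ± 0.08 in KO LPA libraries, and it had 0 counts in the 4 KO LPS libraries. Library totals were 31985119 to 46697165 counts in WT and 15167683 to 21461866 in KO, and by the labels WT libraries were sequenced in lanes 1 and 2 and KO libraries in lane 1 alone, so depth, lanes and genotype cannot be told apart. All 10 macrophage markers examined were present, with a summed level of 31500 to 48009 CPM, whereas the 8 measured of 9 neutrophil markers summed to 168 to 537 CPM, 6 of 7 T, NK and B cell markers, 5 of 7 dendritic cell markers and all 3 erythroid markers were not among the genes of the table, the 5 measured of 7 stromal markers summed to 5.66 to 27.1 CPM, and of 4 mast cell markers Hdc alone was measured, at 0.905 to 49.5 CPM. Some of these markers moved with the groups. Summed neutrophil markers were at 263 to 479 CPM in WT untreated, 220 to 266 in WT LPA, 265 to 537 in KO untreated and 203 to 415 in KO LPA libraries, Hdc was at 1.40 to 2.49 CPM in WT untreated, 2.62 to 4.15 in WT LPA and 44.0 to 49.5 in WT LPS libraries, and their part in the results on ribosome biogenesis was not tested. Singly, with LPA in WT cells the macrophage genes Cd14, Mertk and Spi1 changed by 1.24, −0.65 and 0.40 on the log2 scale, the dendritic cell marker Kmo by −1.82, Cd4 by −0.43, the neutrophil marker Ltf by −0.64, Hdc by 0.77 and the endothelial gene Cdh5 of the stromal list by 1.63, and Pecam1 of that list changed by 1.29 in KO cells (all at an adjusted p below 0.05 by edgeR). The genotype difference of the LPA change was called for Cd14, Mertk, Spi1, Kmo, Hdc and Pecam1, among the markers named here.

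Promoters were compared first, because CACGTG is the letter sequence that Myc is known to bind. RefSeq promoters on build GRCm38.p6, each from 250 bases before to 50 after the annotated start, were matched by gene identifier to 39 of the 49 genes. No entry was matched for Myc, Fbl, Npm1, Bop1, Rrp12, Nol6, Nop53, Utp6, Utp11 and Utp23. CACGTG, which reads the same on both strands, was present in the promoters of 11 of the 39 genes (28.2%) and of 1111 of the 9210 genes of the count table with a promoter (12.1%). It was found for 9 of the 19 matched genes that were higher with LPA in WT cells (47.4%) and for 2 of the 20 that were not (10.0%). The share among all genes of the table that were higher with LPA was not taken. Whether this split is particular to the 49 genes was therefore not tested. CCGGAAG, a form of the ETS-family motif, was searched on both strands and cannot share bases with CACGTG. It was found for 11 of the 39 genes (28.2%) and for 21.5% of the genes of the table, and for 6 of the 19 and 5 of the 20. Over all 32851 promoters of the reference table the shares were 7.15% for CACGTG and 8.86% for CCGGAAG. A match is a run of letters in this window and was not tested as a binding site.

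The promoters of the 3 genes with the smallest adjusted p for LPA in WT cells among those that hold CACGTG are shown 5′ to 3′, with the motif in capitals. They lie at chr17:71615965-71616264 on the plus strand (Wdr43), chr10:88826765-88827064 on the minus strand (Utp20) and chr11:93885717-93886016 on the minus strand (Utp18). The motif begins 17 bases after the start in Wdr43, 37 bases after it in Utp20 and 20 bases before it in Utp18.
Wdr43: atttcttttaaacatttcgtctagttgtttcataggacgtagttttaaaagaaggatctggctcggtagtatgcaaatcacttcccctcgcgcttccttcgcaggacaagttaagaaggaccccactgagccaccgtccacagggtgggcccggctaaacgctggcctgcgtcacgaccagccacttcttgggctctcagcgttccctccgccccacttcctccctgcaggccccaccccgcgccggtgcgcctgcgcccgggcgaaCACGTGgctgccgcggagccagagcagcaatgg
Utp20: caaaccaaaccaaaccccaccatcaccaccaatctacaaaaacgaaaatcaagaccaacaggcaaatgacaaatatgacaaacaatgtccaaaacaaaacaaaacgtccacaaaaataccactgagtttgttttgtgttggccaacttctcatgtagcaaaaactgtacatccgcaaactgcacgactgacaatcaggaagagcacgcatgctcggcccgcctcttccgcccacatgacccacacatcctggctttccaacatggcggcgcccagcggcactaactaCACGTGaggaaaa
Utp18: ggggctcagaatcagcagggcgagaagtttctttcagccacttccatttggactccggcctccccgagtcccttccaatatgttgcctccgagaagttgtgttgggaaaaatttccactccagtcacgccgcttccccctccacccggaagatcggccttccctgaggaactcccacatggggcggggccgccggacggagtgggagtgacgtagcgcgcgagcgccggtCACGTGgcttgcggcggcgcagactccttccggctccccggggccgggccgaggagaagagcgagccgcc

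The promoters of the 3 genes with the smallest adjusted p that lack CACGTG are shown for contrast, and they therefore hold no capitals. They lie at chr12:17348243-17348542 (Nol10), chr6:71908803-71909102 (Polr1a) and chr1:59684756-59685055 (Nop58), all on the plus strand.
Nol10: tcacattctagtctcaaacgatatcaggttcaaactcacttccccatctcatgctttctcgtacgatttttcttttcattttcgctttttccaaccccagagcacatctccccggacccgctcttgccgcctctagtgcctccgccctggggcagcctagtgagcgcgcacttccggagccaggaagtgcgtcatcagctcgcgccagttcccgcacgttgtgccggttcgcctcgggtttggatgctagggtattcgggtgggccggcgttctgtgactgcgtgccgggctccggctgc
Polr1a: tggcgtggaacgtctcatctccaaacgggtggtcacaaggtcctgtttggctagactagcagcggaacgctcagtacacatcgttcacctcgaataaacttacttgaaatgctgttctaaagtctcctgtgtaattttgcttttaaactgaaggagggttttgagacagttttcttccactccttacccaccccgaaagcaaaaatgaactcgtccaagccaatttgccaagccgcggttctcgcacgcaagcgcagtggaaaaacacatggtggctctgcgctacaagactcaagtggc
Nop58: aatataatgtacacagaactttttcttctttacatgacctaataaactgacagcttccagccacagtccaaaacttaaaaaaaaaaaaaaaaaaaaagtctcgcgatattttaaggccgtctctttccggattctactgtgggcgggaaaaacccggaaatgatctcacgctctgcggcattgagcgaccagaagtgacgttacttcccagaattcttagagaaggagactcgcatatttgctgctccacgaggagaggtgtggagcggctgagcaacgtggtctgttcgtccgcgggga

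In untreated WT cells, levels per kilobase of the deposited gene length ran from 73.1 CPM per kb for Npm1, a nucleolar chaperone, to 1.09 CPM per kb for Polr1e. After Npm1 came Rrp1 at 66.8, Nop53 at 58.5, Utp3 at 34.7 and Ncl, which encodes nucleolin, at 34.5 CPM per kb. Myc lay near the low end at 1.85 CPM per kb, beside Mdn1 at 1.77. The 49 genes together took 0.184% ± 0.0023 of all counts in WT untreated libraries, 0.189% ± 0.0017 with LPA and 0.163% ± 0.0103 with LPS (SD, n = 4), and in KO libraries 0.187% ± 0.0032, 0.185% ± 0.0012 and 0.172% ± 0.0046.

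**Figure D1:**
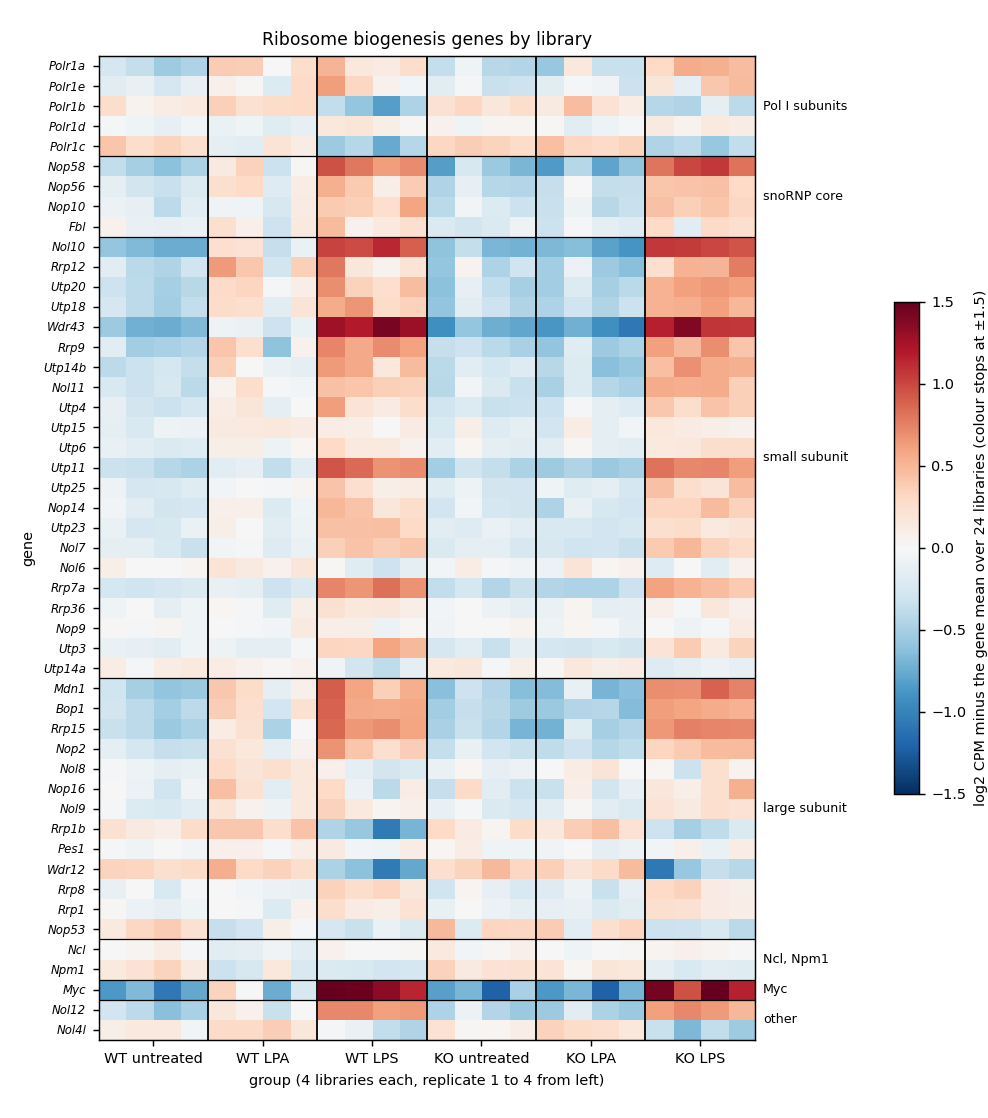
Log2 CPM of the 49 genes (vertical axis, by role) in the 24 libraries (horizontal axis, by group), as the difference from each gene's mean over all libraries, with red above it and blue below it. Most small-subunit genes are blue in the untreated and KO LPA libraries, pale in WT LPA libraries other than the third, and red in both LPS groups, while Polr1b, Polr1c, Wdr12 and Rrp1b run the other way with LPS.

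The first question was what LPA did to these genes in WT cells. Of the 49, 25 rose and 4 fell, where 23.5% of all 11590 genes rose and 21.1% fell (edgeR quasi-likelihood test, adjusted p below 0.05 over all genes). In these bulk libraries, fewer cells of a type and less RNA per cell cannot be told apart. The median log2 change was 0.19 over the 49 genes and −0.01 over all genes. Among small-subunit factors 14 of 22 rose and 0 fell, among large-subunit factors 6 of 13 rose and 1 fell, among snoRNP core proteins 2 of 4 rose, and among RNA polymerase I subunits 1 of 5 rose and 1 fell. Leaving out each library in turn gave 20 to 27 genes higher and 3 to 4 lower. Scaling by library totals gave 22 higher and 4 lower, and under it the share of calls over all genes that were higher moved from 52.7% to 40.3%. The last 2 percentages are shares of calls, and shares of all genes under library totals are not given here.

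Myc, on chromosome 15 at 61985341 to 61990361 (GRCm38.p6), encodes a basic helix-loop-helix transcription factor that activates ribosome biogenesis genes. Its level in the 4 WT untreated libraries was 4.36, 5.01, 3.76 and 4.66 CPM, and in the 4 WT LPA libraries it was 10.1, 7.95, 4.73 and 6.71 CPM. The third LPA library lay within the untreated range but above the third untreated library, and the other 3 lay above that range. Myc rose by 0.73 ± 0.18 (SE) on the log2 scale with LPA (adjusted p = 0.00328), and by 0.89 without LPA library 3.

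Polr1a encodes the largest subunit of RNA polymerase I and Polr1b the second largest, and together they form its catalytic centre. Polr1a was at 20.0, 18.5, 16.4 and 17.1 CPM in untreated and at 31.0, 30.7, 23.9 and 28.6 CPM in LPA-treated WT libraries. The ranges did not overlap, and Polr1a rose by 0.66 ± 0.12 (adjusted p = 0.000178). Polr1b was at 12.8, 11.0, 11.5 and 11.8 CPM in untreated and at 13.6, 12.5, 12.9 and 13.1 CPM in LPA-treated libraries, which overlapped, with a log2 change of 0.15 ± 0.09 (adjusted p = 0.174). Polr1c, a subunit shared with RNA polymerase III, went from 19.7, 17.8, 18.6 and 17.4 CPM to 13.4, 13.2, 16.97 and 15.9 CPM. All 4 LPA-treated libraries were below the untreated ones, and Polr1c fell by 0.31 on the log2 scale (SE 0.08, adjusted p = 0.0031). Polr1d, also shared with RNA polymerase III, and Polr1e were not called.

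Nop58 and Nop56 are the scaffold pair of the box C/D snoRNPs, in which Fbl, fibrillarin, is the methyltransferase. Nop58 was at 17.3, 15.8, 14.5 and 16.1 CPM in untreated and at 24.4, 28.3, 17.9 and 22.6 CPM in LPA-treated WT libraries, without overlap, and rose by 0.55 ± 0.12 (adjusted p = 0.00113). Nop56 was at 19.6, 17.7, 17.1 and 18.5 CPM against 25.4, 26.5, 18.8 and 23.3 CPM and rose by 0.37 ± 0.10 (adjusted p = 0.0057), with the third LPA library inside the untreated range. Fbl was at 12.98, 11.5, 11.4 and 11.7 CPM against 14.7, 13.2, 9.99 and 13.8 CPM, with a log2 change of 0.12 ± 0.11 (adjusted p = 0.386). Its lowest library of the 8 was a treated one. Nop10, a core protein of the H/ACA class, had a log2 change of 0.13 ± 0.09 (adjusted p = 0.226).

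The small-subunit factors carried the smallest adjusted p-values. Nol10, the counterpart of yeast Enp2, was at 11.0, 10.5, 9.90 and 9.92 CPM in untreated and at 19.8, 19.2, 13.05 and 15.4 CPM in LPA-treated WT libraries. It rose by 0.71 ± 0.10 (adjusted p = 1.1e-05), and every treated library was above every untreated one. Wdr43, the counterpart of yeast Utp5, was at 42.9, 37.8, 37.3 and 39.6 CPM against 59.3, 58.5, 50.6 and 58.5 CPM, without overlap, and rose by 0.53 ± 0.08 (adjusted p = 3.94e-05). Utp20 was at 33.8, 31.8, 29.6 and 31.4 CPM against 50.9, 52.3, 40.9 and 44.8 CPM, again without overlap, and rose by 0.58 ± 0.10 (adjusted p = 9.54e-05).

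Utp18, a component of the processome's UtpB complex, was at 14.7, 13.4, 12.2 and 13.6 CPM against 21.2, 20.95, 15.8 and 20.2 CPM and rose by 0.53 ± 0.09 (adjusted p = 0.000141). Nol11, which belongs with Wdr43, Utp4 and Utp15 to the vertebrate UtpA complex, was at 23.9, 22.4, 23.6 and 21.1 CPM against 29.1, 33.5, 27.5 and 27.1 CPM and rose by 0.37 ± 0.08 (adjusted p = 0.00068). For both genes the treated and untreated ranges were apart. All 4 of these UtpA genes rose, Utp4 by 0.29 and Utp15 by 0.28 on the log2 scale. At the other end of the group, Utp3, Utp14a, Nop9 and Rrp36 had log2 changes between −0.02 and 0.05 and were not called.

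In the large subunit, Mdn1 encodes a giant ATPase that pulls assembly factors off the maturing particle. It was at 36.2, 31.4, 29.5 and 30.2 CPM in untreated and at 59.0, 54.1, 40.6 and 47.0 CPM in LPA-treated WT libraries, without overlap, and rose by 0.66 ± 0.13 (adjusted p = 0.000427). Bop1, Pes1 and Wdr12 encode the 3 proteins of the PeBoW complex, of which Bop1 alone passed the test. Bop1 was at 30.8, 28.3, 26.0 and 28.2 CPM against 48.0, 44.3, 30.4 and 43.4 CPM and rose by 0.55 ± 0.10 (adjusted p = 0.000164), with the third LPA library just inside the untreated range. Pes1 was at 61.4, 60.5, 63.0 and 61.3 CPM against 66.1, 66.2, 62.1 and 67.6 CPM, a log2 change of 0.09 ± 0.05 (adjusted p = 0.178). Wdr12 was at 11.2, 11.1, 10.6 and 10.8 CPM against 13.1, 11.0, 11.3 and 10.7 CPM, a log2 change of 0.07 ± 0.11 (adjusted p = 0.623), and for Pes1 and Wdr12 the treated and untreated ranges overlapped.

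Further genes of these groups rose by smaller amounts or from lower levels. Rrp12, a transport factor of both subunits, was at 8.33, 7.01, 6.78 and 7.59 CPM in untreated and at 14.5, 12.3, 7.68 and 11.96 CPM in LPA-treated WT libraries and rose by 0.65 ± 0.18 (adjusted p = 0.00536), with the third LPA library inside the untreated range. Nop2, a methyltransferase of ribosomal RNA, was at 23.96, 22.2, 20.96 and 21.1 CPM against 31.2, 29.7, 24.2 and 27.9 CPM, without overlap, and rose by 0.36 ± 0.08 (adjusted p = 0.00128). Rrp15 rose by 0.44, Nol12 by 0.43, Nol8 by 0.31 and Nol9, a polynucleotide kinase, by 0.25. Over the 49 genes, the treated and untreated WT ranges were apart for 18. Ranges were not compared for the other genes of the table, so this count has no share of all genes beside it. By edgeR, 52% of all genes had an unadjusted p below 0.05 in this comparison.

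The 2 abundant nucleolar proteins went the other way. Npm1 was at 119.8, 126, 137 and 119 CPM in untreated and at 87.1, 91.8, 121 and 92.9 CPM in LPA-treated WT libraries, and fell by 0.35 on the log2 scale (SE 0.07, adjusted p = 0.000615). The third LPA library lay inside the untreated range and the other 3 lay below it. Ncl went from 278, 287, 302 and 272 CPM to 248, 252, 269 and 249.99 CPM, and fell by 0.16 (SE 0.04, adjusted p = 0.00632). Nop53, a large-subunit factor that in yeast recruits the RNA exosome, went from 83.7, 93.5, 98.4 and 88.7 CPM to 59.4, 62.1, 80.6 and 74.8 CPM, and fell by 0.40 (SE 0.12, adjusted p = 0.0119). For Ncl and Nop53 the treated and untreated ranges were apart.

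**Figure D2:**
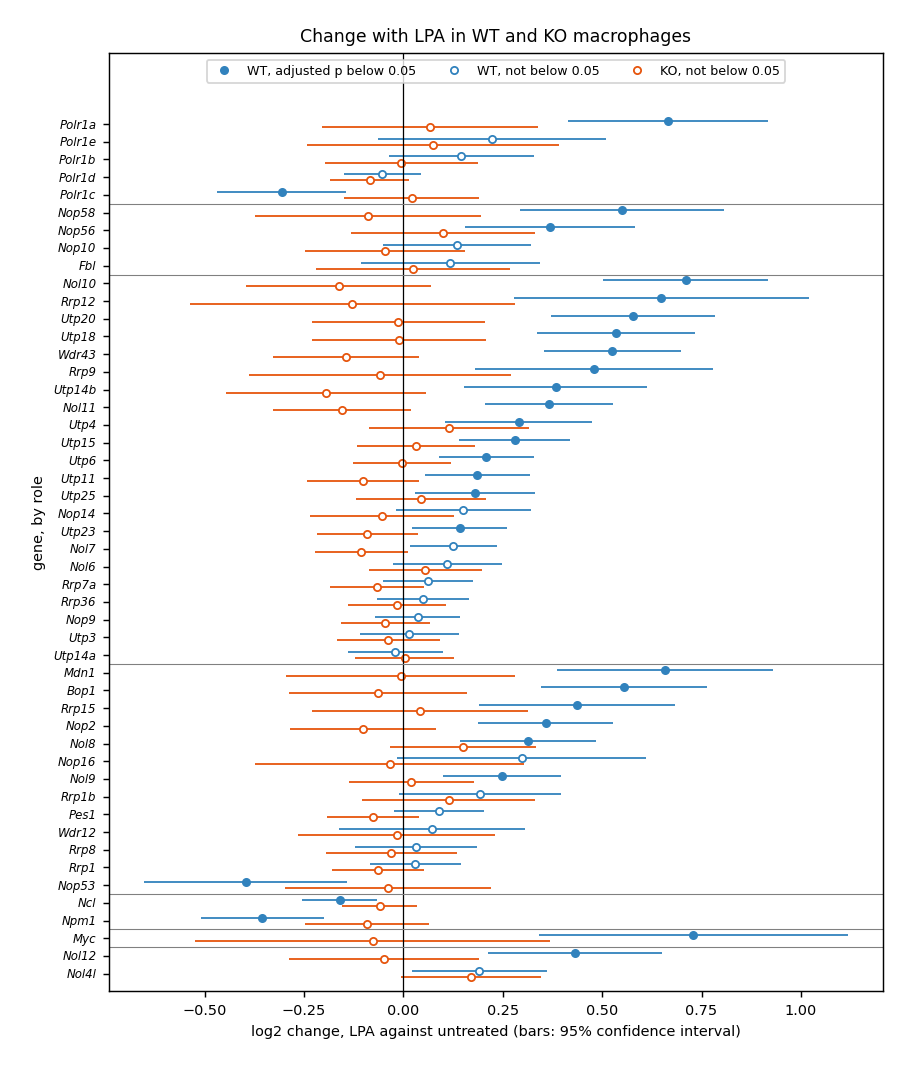
Log2 change with LPA against untreated cells (horizontal axis, bars are 95% confidence intervals) for each of the 49 genes (vertical axis, by role), in WT (blue) and KO cells (orange), with filled circles where the adjusted p was below 0.05. The 25 genes that rose and the 4 that fell are blue, and every orange interval but none of the filled blue ones crosses 0.

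The third WT LPA library stood apart from the other 3 across the whole set. The mean of the centred log2 levels over the 49 genes was −0.12 in it and 0.06 to 0.14 in the other WT LPA libraries, against −0.24 to −0.12 in the WT untreated libraries. Without it 27 genes were higher and 4 lower with LPA. In KO cells the second untreated and the second LPA library were the highest of their groups, at −0.08 and −0.10, where the other 6 lay between −0.26 and −0.22.

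The same 4 h of LPA were then examined in KO cells. None of the 49 genes passed the test, in either direction, where 2.62% of all genes did, and none had an unadjusted p below 0.05, where 12.7% of all genes did. DESeq2 also called 0 of them. Both fits ignored the replicate numbers. With the number as a block within each genotype, calls over all genes moved from 181 higher and 123 lower to 307 and 247. The log2 changes of the 49 genes lay between −0.20 and 0.17, with a median of −0.04. Myc was at 4.50, 4.92, 3.41 and 5.66 CPM in untreated and at 4.36, 4.92, 3.41 and 4.90 CPM in LPA-treated KO libraries, a log2 change of −0.08 with a 95% interval of −0.52 to 0.37. For Nol10 the values were 10.9, 12.9, 10.3 and 10.1 CPM against 10.4, 10.6, 9.49 and 8.99 CPM, and the interval was −0.39 to 0.07. For Polr1a they were 18.5, 22.8, 17.8 and 17.5 CPM against 16.0, 26.6, 18.9 and 18.8 CPM, and the interval was −0.20 to 0.34. The second KO LPA library of Polr1a was above every untreated library and within the range of the WT LPA libraries. The upper ends of the intervals of Nol10 and Polr1a lie below their WT estimates of 0.71 and 0.66. KO libraries were shallower, and depth cannot be told apart from lanes and genotype. When all 24 libraries were thinned to 15167683 counts, WT cells gave 22 genes higher and 4 lower with LPA. The shares over all genes for the thinned counts are not given here.

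The difference between the genotypes was tested directly, as the LPA change in KO minus that in WT cells. It passed the test below 0 for 17 of the 49 genes, where 15.8% of all genes did, and above 0 for Polr1c alone, where 12.7% did. In sign alone, 5 of the 49 differences were above 0. The median difference was −0.20 over the 49 genes and 0.01 over all genes. The 17 comprised 10 small-subunit factors, 3 large-subunit factors, Nop58, Polr1a, Myc and Nol12, the counterpart of yeast Rrp17. The differences were −0.87 ± 0.15 for Nol10 (adjusted p = 0.000308), −0.67 ± 0.12 for Wdr43 (0.000488), −0.52 ± 0.11 for Nol11 (0.00218) and −0.62 ± 0.15 for Bop1 (0.00389). For Polr1a the difference was −0.60 ± 0.18 (adjusted p = 0.0154) and for Mdn1 −0.66 ± 0.19 (0.0127). With the replicate number as a block within each genotype, 24 genes passed below 0 and 3 above it. The shares of 15.8% and 12.7% are from the fit without the block, and those with it are not given here. Under library totals 13 passed below and 2 above 0, and the share of calls over all genes that were above 0 moved from 44.6% to 59.9%. These are shares of calls, and shares of all genes under library totals are not given here.

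Myc differed by −0.81 ± 0.28 (adjusted p = 0.0367), and 10 of 25 alternative settings left it without a call. Polr1c differed by 0.33 ± 0.11 (adjusted p = 0.0331) and lost its call in 7 of 25, and Utp11 by −0.29 ± 0.09 (adjusted p = 0.0239) and lost it in 4 of 25. For Fbl, Polr1b and Wdr12 the differences were −0.09 ± 0.16, −0.15 ± 0.13 and −0.09 ± 0.16 and were not called. Npm1 differed by 0.26 ± 0.10 (adjusted p = 0.062), and by 0.38 (adjusted p = 0.000394) without the third WT LPA library. The count of 17 became 11 without the second WT LPA library and 22 without the third.

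With LPA present, KO cells were lower than WT cells for 28 of the 49 genes and higher for 4, where 25.9% and 24.4% of all genes were lower and higher. The 4 were Polr1c, Npm1, Nop53 and Ncl, of which Ncl lost its call in 8 of 16 alternative settings and Nop53 in 6 of 16. Leaving out 1 library gave 2 to 4 genes higher and 22 to 32 lower, with 2 higher without WT LPA library 1, among others, and a replicate block in a fit of the 2 groups gave 18 lower. Wdr43 was at 34.2, 38.0, 33.0 and 29.7 CPM in KO LPA libraries, all below the WT LPA libraries given above, with a log2 difference, KO minus WT, of −0.75 ± 0.09 (adjusted p = 4.28e-07). Nol10 had a value of −0.78 ± 0.10 and Bop1 of −0.68 ± 0.10, and neither overlapped between the genotypes. These comparisons share the WT LPA libraries with those above. Under library totals 19 were lower and 5 higher, and the share of calls over all genes that were higher in KO moved from 48.4% to 67.4%. Here too the shares are of calls, and shares of all genes under library totals are not given.

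Untreated cells of the 2 genotypes were compared next. None of the 49 passed the test, where 0.00863% of all genes did. None had an unadjusted p below 0.05, where 2.71% of all genes did, and DESeq2 called 0. The log2 differences between KO and WT lay between −0.13 and 0.10. For Myc the difference was 0.06, with a 95% interval of −0.36 to 0.47.

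**Figure D3:**
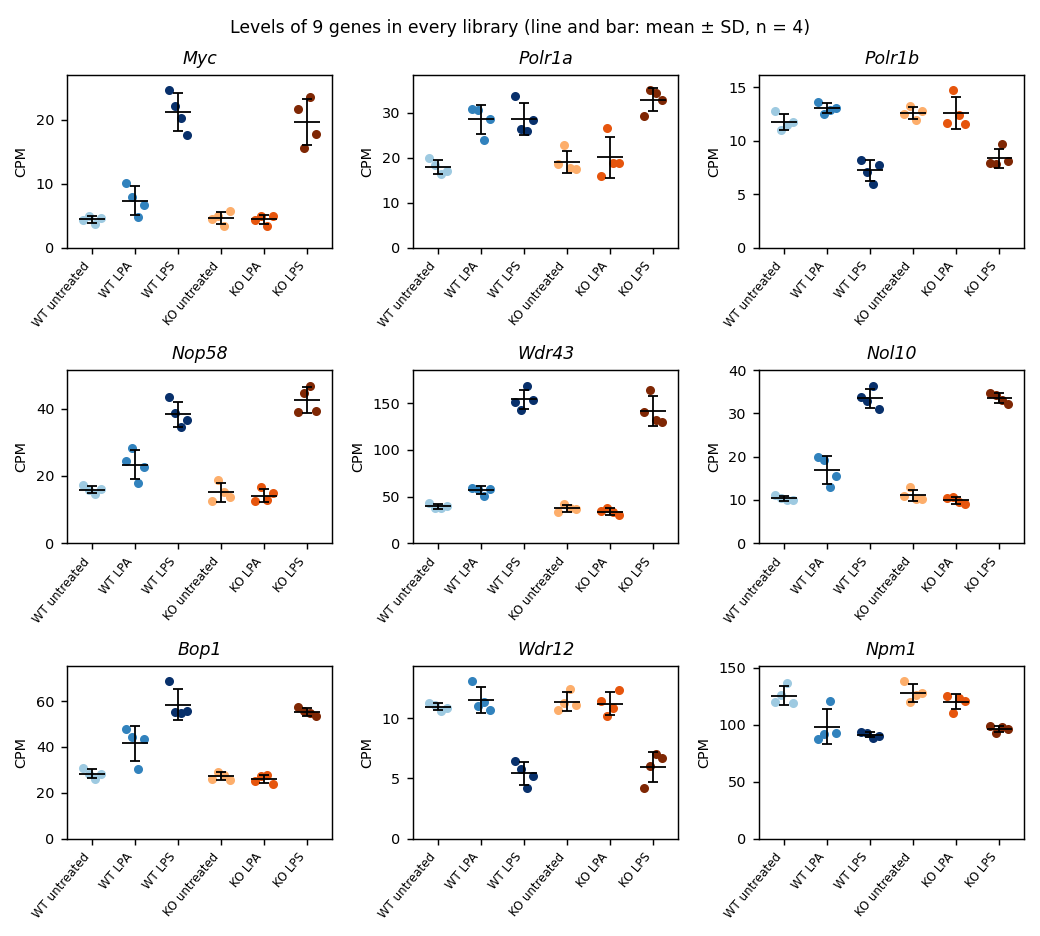
CPM (vertical axes, from 0) of 9 genes in every library of the 6 groups, with the mean and SD of 4 libraries in black. The WT LPA means of Myc, Nop58, Wdr43, Nol10 and Bop1 lie between the untreated and the LPS means, that of Polr1a lies beside the LPS mean, and the KO LPA means lie with the untreated ones, although the second KO LPA library of Polr1a, at 26.6 CPM, is above every untreated library.

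LPS was the second stimulus, and its values depend on how libraries are scaled. TMM factors, which centre the bulk of the genes, were 0.739 to 0.840 in the 8 LPS libraries and 1.06 to 1.18 in the other 16, and scaling by library totals instead moved the median of all genes by −0.56 in WT and −0.50 in KO cells. The comparisons of LPA and of LPS in WT cells share the WT untreated libraries. Changes with LPS are therefore changes relative to the bulk of the genes. On the TMM scale 35 of the 49 genes rose and 9 fell in WT cells, where 40.6% of all genes rose and 43.6% fell, and 35 rose and 8 fell in KO cells, where 39.3% rose and 43% fell. Under library totals the counts were 14 higher and 22 lower in WT and 18 higher and 18 lower in KO cells. Of all 11590 genes, 2387 were then higher and 7847 lower in WT, and 2428 higher and 7627 lower in KO cells. The share of calls over all genes that were higher moved from 48.3% to 23.3% in WT and from 47.7% to 24.1% in KO cells. In WT cells 14 genes were higher on both scales, 9 were lower on both, and 8 (Rrp8, Utp15, Fbl, Rrp1, Polr1d, Utp6, Rrp36 and Nol9) were higher on the first and lower on the second. In KO cells 18 were higher and 8 lower on both, and Utp15, Rrp1, Utp6 and Rrp36 changed sides.

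The 14 genes higher on both scales in WT cells were Myc, 8 small-subunit factors (Wdr43, Nol10, Utp11, Rrp7a, Rrp9, Utp14b, Utp18 and Utp20), Nol12, Nop58, and the large-subunit factors Mdn1, Bop1 and Rrp15. Myc was at 24.6, 22.2, 20.3 and 17.7 CPM in WT LPS and at 21.6, 15.5, 23.6 and 17.8 CPM in KO LPS libraries, all above every untreated library of either genotype. It rose by 2.25 ± 0.19 in WT (adjusted p = 1.19e-10) and by 2.09 ± 0.20 in KO cells (adjusted p = 1.65e-09). Wdr43 was at 152, 143, 169 and 153 CPM in WT LPS and at 140.3, 165, 132 and 130.3 CPM in KO LPS libraries, against at most 42.9 CPM in untreated WT libraries, and rose by 1.97 ± 0.08 and by 1.93 ± 0.09. Nol10 reached 33.7, 32.8, 36.4 and 31.0 CPM in WT LPS libraries and rose by 1.69 ± 0.10 there.

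Nop58 was at 43.4, 38.6, 34.4 and 36.6 CPM in WT LPS and at 39.1, 44.7, 46.8 and 39.3 CPM in KO LPS libraries, and rose by 1.26 ± 0.12 on the log2 scale in WT and 2.83-fold in KO cells. Mdn1 was at 83.6, 67.3, 57.0 and 65.0 CPM in WT LPS libraries and rose by 1.099 ± 0.13. All 4 were above the untreated range, and 3 of them were above the highest LPA library at 59.0 CPM. Bop1 was at 68.6, 55.1, 54.7 and 55.4 CPM and rose by 1.05 ± 0.10 (adjusted p = 1.31e-09).

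Utp11, a processome protein, was at 29.9, 29.7, 27.9 and 27.1 CPM in untreated and at 72.3, 67.6, 60.2 and 61.4 CPM in LPS-treated WT libraries, and rose by 1.19 ± 0.06 (adjusted p = 3.46e-14). Rrp7a, whose yeast counterpart belongs to the UtpC complex, was at 46.7, 45.5, 47.0 and 48.3 CPM against 93.2, 88.5, 99.3 and 88.9 CPM and rose by 0.98 ± 0.05 (adjusted p = 6.12e-14). With LPA in WT cells these 2 genes had log2 changes of 0.19 ± 0.06 and 0.06 ± 0.05. Rrp7a shares exon bases with Serhl on the opposite strand, and the strand setting of the counting is not given in the sources used here.

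The 9 genes lower on both scales in WT cells were Polr1b, Polr1c, Wdr12, Rrp1b, Npm1, Nop53, Nol6, Utp14a and Nol4l. Polr1b was at 8.199, 7.10, 5.94 and 7.71 CPM in WT LPS and at 7.88, 7.77, 9.64 and 8.08 CPM in KO LPS libraries, all below every untreated library, and fell by 0.70 on the log2 scale in WT (SE 0.09, adjusted p = 1.78e-07). Polr1c was at 10.1, 10.9, 8.67 and 11.0 CPM in WT LPS libraries, also below every untreated one, and fell by 0.85 (SE 0.08, adjusted p = 9.63e-10). Polr1a, by contrast, had a log2 change of 0.67 ± 0.12 on the TMM scale (adjusted p = 2.46e-05) and was not called under library totals. Wdr12 was at 6.41, 5.77, 4.22 and 5.21 CPM with LPS, below all untreated WT libraries, and fell by 1.02 on the log2 scale (SE 0.12, adjusted p = 3.17e-08). Rrp1b, one of 2 counterparts of yeast Rrp1, went from 7.72, 7.25, 7.10 and 7.99 CPM to 4.80, 4.44, 3.14 and 4.05 CPM and fell by 0.87 (SE 0.10, adjusted p = 4.14e-08). Its relative Rrp1 rose by 0.24 on the TMM scale and was lower under library totals. Nol4l, which was included by its name alone, went from 37.6, 39.4, 39.2 and 34.5 CPM to 34.9, 33.2, 27.4 and 25.9 CPM, with overlap, and fell by 0.31 (SE 0.08, adjusted p = 0.00129).

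**Figure D4:**
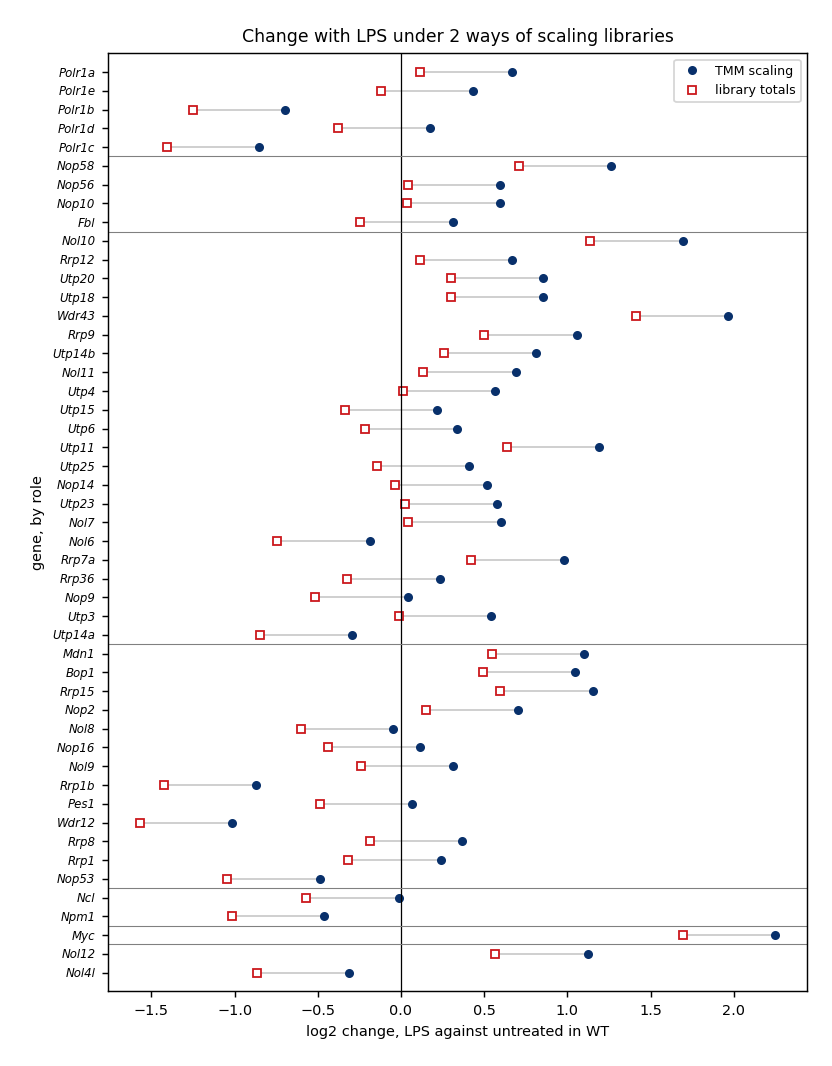
Log2 change with LPS against untreated WT cells (horizontal axis) for each of the 49 genes (vertical axis, by role), with libraries scaled by TMM (filled circles) or by their totals (open squares). Library totals shift every gene to the left by a like amount, which leaves Myc, Wdr43, Nol10 and Utp11 above 0 and Fbl, Rrp1 and Polr1d below it.

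Ratios of counts within a library do not depend on the scaling. The pairs below were chosen after the values were seen, from genes of 1 complex, and are given without a test. Counts of Polr1a over Polr1b were 1.56, 1.68, 1.43 and 1.46 in WT untreated, 2.27, 2.45, 1.85 and 2.19 in WT LPA and 4.12, 3.72, 4.35 and 3.69 in WT LPS libraries, with no overlap between the 3 groups. In KO libraries they were 1.49, 1.72, 1.49 and 1.38 untreated, 1.37, 1.81, 1.53 and 1.64 with LPA and 3.72, 4.51, 3.57 and 4.07 with LPS. Here the untreated and LPA values overlapped and the LPS values were higher than both.

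Bop1 over Wdr12 was 2.59 ± 0.12 in WT untreated, 3.62 ± 0.64 in WT LPA and 11.0 ± 1.43 in WT LPS libraries, and 2.39 ± 0.16, 2.34 ± 0.35 and 9.72 ± 2.76 in the KO groups in the same order (SD, n = 4). The WT LPA libraries ran from 2.69 to 4.07 and the WT untreated ones from 2.46 to 2.74, so they overlapped, and both LPS groups lay at 7.83 or above. Nop58 over Fbl was 1.34 ± 0.05, 1.81 ± 0.23 and 2.61 ± 0.24 in WT and 1.40 ± 0.31, 1.28 ± 0.11 and 3.08 ± 0.66 in KO libraries. All 3 ratios were higher in every LPS library than in any untreated library of either genotype.

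**Figure D5:**
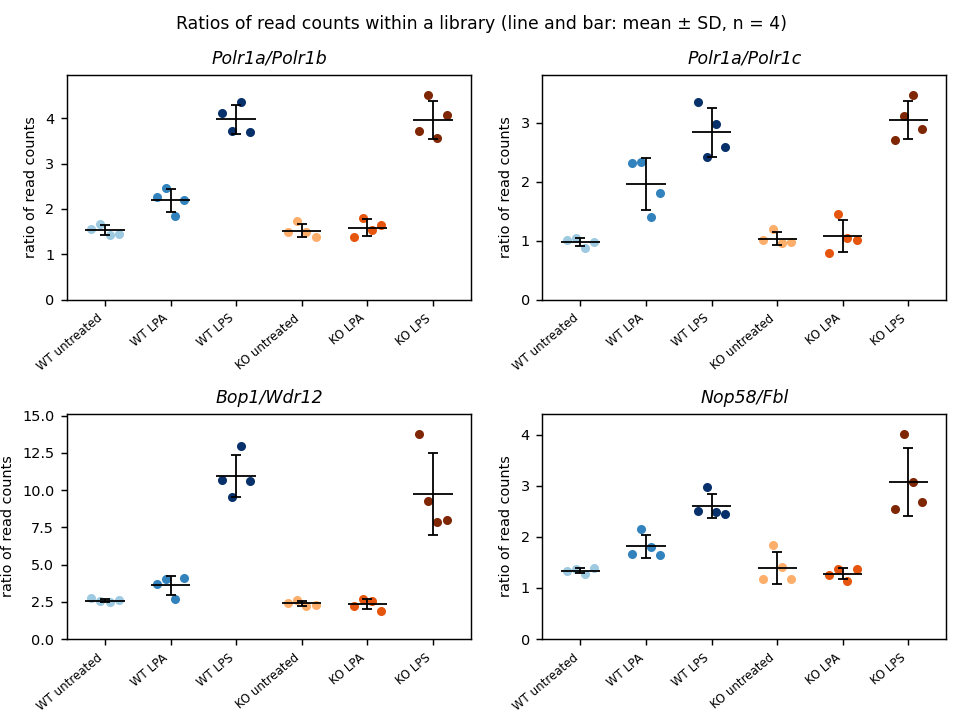
Ratios of read counts of 4 gene pairs within each library (vertical axes, from 0) in the 6 groups, with the mean and SD of 4 libraries in black. Polr1a over Polr1b runs from 1.43 to 1.68 in WT untreated, from 1.85 to 2.45 in WT LPA and from 3.69 to 4.35 in WT LPS libraries, while KO LPA libraries overlap KO untreated ones.

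LPS and LPA were also set against each other directly in WT cells. On the TMM scale 30 of the 49 genes were higher with LPS and 8 were lower, where 37.8% and 41.1% of all genes were higher and lower. Under library totals 5 were higher, namely Myc, Nol10, Utp11, Wdr43 and Rrp7a, and 29 were lower. Of all 11590 genes, 1979 were then higher and 8087 lower, and the share of calls that were higher moved from 47.9% to 19.7%. Myc differed by 1.52 ± 0.18, Wdr43 by 1.44 ± 0.08, Utp11 by 1.00 ± 0.06, Nol10 by 0.98 ± 0.10 and Rrp7a by 0.92 ± 0.05. The 8 lower genes, Polr1b, Polr1c, Wdr12, Rrp1b, Nol4l, Nol6, Nol8 and Utp14a, were lower on both scales. Polr1a was at 33.7, 26.4, 25.9 and 28.5 CPM with LPS, overlapping the LPA libraries on the TMM scale, with a difference of 0.00 ± 0.12 (adjusted p = 0.974).

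The response to LPS was compared between the genotypes. The difference of the LPS change, KO minus WT, was called for 0 of the 49 genes by edgeR, where 0% of all genes were called. An unadjusted p below 0.05 was found for 3 of the 49, near the 6.02% of all genes, and DESeq2 called 0. With LPS present, Rrp7a alone was lower in KO than in WT cells, where 2.16% of all genes were lower, and none was higher, where 0.69% were. Under library totals 0 were lower. Of all 11590 genes, 381 were then higher and 106 lower, and the share of calls that were higher moved from 24.2% to 78.2%. Rrp7a was at 85.0, 79.9, 77.0 and 73.3 CPM in KO LPS libraries, below all 4 WT LPS libraries, with a log2 difference of −0.23 ± 0.05 (adjusted p = 0.0239), and 6 of 16 alternative settings left it without a call. With LPA present its difference was −0.23 ± 0.06 (adjusted p = 0.00174).

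Other genes of the pathway were described from lists that do not hold the 49. Their counts are to be read against the shares of all genes, which with LPA in WT cells were 23.5% higher and 21.1% lower, in KO cells 2.62% called in either direction, and for the difference between genotypes 15.8% below and 12.7% above 0. These shares are on the TMM scale, and those under library totals are not given here. Of 40 further large-subunit factors, 30 rose and 0 fell with LPA in WT cells, with a median log2 change of 0.26, and 0 were called in KO cells. The difference between genotypes passed the test below 0 for 19 of them. Under library totals 24 were higher and 1 lower in WT cells, and the difference passed for 15 below and 1 above 0. Ddx21, a nucleolar RNA helicase, rose by 0.80 ± 0.10 (adjusted p = 2.91e-06) and differed between genotypes by −0.89 ± 0.14, and Rrs1, an assembly factor of the 5S particle, rose by 0.74 ± 0.10 (adjusted p = 6.47e-06) and differed by −0.88 ± 0.15. Of 30 further small-subunit factors, 16 rose and 2 fell in WT cells, 1 rose in KO cells, and the difference passed below 0 for 12 and above 0 for 1. Under library totals 12 were higher and 3 lower in WT cells. Mphosph10, a partner of the U3 snoRNP, rose by 0.65 ± 0.07 (adjusted p = 5.32e-07) and differed by −0.54 ± 0.10.

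Of 14 measured genes among 15 further snoRNP proteins and chaperones, 6 rose and 1 fell with LPA in WT cells, 0 were called in KO cells, and the difference passed below 0 for 5 and above 0 for 1. Under library totals 5 were higher and 1 lower in WT cells. Nolc1, a chaperone of snoRNPs, rose by 0.67 ± 0.10 (adjusted p = 1.59e-05). Of 11 transcription factors and subunits of RNA polymerase I under other names, 2 rose and 2 fell, with a median of −0.07, and under library totals 1 was higher and 2 lower. The 4 were Rrn3, the initiation factor that recruits the polymerase, at 0.20 ± 0.05 (adjusted p = 0.00282), Ubtf at 0.12 ± 0.05 (0.0474), Baz2a, part of the complex that silences ribosomal RNA genes, at −0.20 ± 0.05 (0.00293), and Ttf1 at −0.15 ± 0.04 (0.00789).

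Subunits of the other RNA polymerases were counted in the same way. Of 11 subunits of RNA polymerase III, 3 rose and 1 fell in WT cells, and of 13 subunits of RNA polymerase II, 1 rose and 3 fell, with medians of 0.01 and 0.02. Over all genes 23.5% rose and 21.1% fell, and shares of 3 in 11 and 3 in 13 lie near these. Under library totals 3 subunits of RNA polymerase III were higher and 2 lower, and 0 of RNA polymerase II were higher and 3 lower. Of 12 long non-coding hosts of small nucleolar RNAs, 0 rose and 5 fell, with a median of −0.23. They included Gas5, at −0.23 ± 0.07 (adjusted p = 0.00602), and Zfas1, at −0.37 ± 0.08 (adjusted p = 0.000816). No host was called for the difference between genotypes, where the smallest adjusted p by edgeR was 0.0612, for Snhg12. In KO cells the smallest was 0.479, for Zfas1. Counts of the hosts under library totals are not given here. Of 25 cell-cycle genes, 1 rose, Ccnd2, by 1.23 ± 0.25 (adjusted p = 0.000631), and 2 fell, and under library totals 1 was higher and 4 lower.

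Of 11 measured genes among 12 of the MYC network, which groups Max and Mlx, their partners and the repressors that compete with Myc, 3 rose and 3 fell with LPA in WT cells, where 23.5% and 21.1% of all genes did, and 0 were called in KO cells. Under library totals 2 were higher and 4 lower. Mycl, a paralogue of Myc, rose by 0.91 ± 0.16 (adjusted p = 0.00012) and differed between genotypes by −1.62 ± 0.27. Mlx rose by 0.33 ± 0.04 and Max by 0.15 ± 0.06 (adjusted p = 0.0396). Mxd4, Mnt and Mxi1, repressors that compete for Max, had log2 changes of −1.12 ± 0.18 (adjusted p = 8.64e-05), −0.26 ± 0.08 (0.0114) and −0.57 ± 0.18 (0.0158), all lower. Mxd1, another such repressor, had a change of −0.08 ± 0.09 (adjusted p = 0.481) and was not called. The difference between genotypes was called for the 6 genes that rose or fell, below 0 for Mycl, Mlx and Max and above 0 for Mxd4, Mxi1 and Mnt. With LPS in WT cells 7 of the 11 were higher and 4 lower on the TMM scale, and 3 higher and 5 lower under library totals. Of the 4 with the smallest adjusted p there, Max changed by 1.30 ± 0.06, Mnt by −1.43 ± 0.08 and Mxd4 by −3.30 ± 0.22, and Mxd1, also a repressor that competes for Max, by 1.54 ± 0.09.

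With LPS in WT cells the lists were again scale-dependent. Over all genes 4709 were higher and 5050 lower on the TMM scale (40.6% and 43.6%) and 2387 higher and 7847 lower under library totals. Of the 40 further large-subunit factors 35 were higher and 3 lower on the TMM scale and 17 higher and 12 lower under library totals, and of the 30 further small-subunit factors 21 were higher and 2 lower on the first and 8 higher and 17 lower on the second. Of the 25 cell-cycle genes 4 were higher and 17 lower on the TMM scale and 3 higher and 21 lower under library totals, with a median of −1.15 on the first. Rrs1 rose by 2.27 ± 0.10 and Imp3, a U3 snoRNP protein, had a change of −1.05 ± 0.07.

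Some of these genes share bases with others. By the GENCODE vM21 annotation of GRCm38, exons of 8 of the 49 overlap exons of another gene in the table, namely Bop1 with Mroh1, Nol7 with Ranbp9, Nop56 with Idh3b, Rrp7a with Serhl, Rrp8 with Ilk, Rrp9 with Parp3 and Wdr12 with Carf on opposite strands, and Utp14b with Acsl3 on the same strand. The libraries were made with a strand-marking kit, but how the counting used strand is not given in the sources used here. Utp14a and Utp14b are close paralogues, and Npm1 has many processed copies in the genome, so their counts are uncertain to the extent that reads were shared.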

How the data were processed

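The deposited table held raw counts per gene for 24 libraries of 51-base reads, made by the authors, with no normalisation, and a deposited gene length (another measure, in bases) used only for levels per kilobase. Per the submitters' processing notes, reads were aligned with STAR 2.5.2a to mm10. How reads were counted, with which strand setting and against which gene models, is not given in the sources used here. The counts were fitted over all 11590 genes and all 6 groups with edgeR 4.0.16 (quasi-likelihood test, TMM factors, filterByExpr with a minimum count of 10, which removed no gene) in R 4.3.3 with limma 3.58.1, and p-values were adjusted by the Benjamini-Hochberg method, with 0.05 as the threshold. CPM are scaled by TMM. Library totals of 15167683 to 46697165 counts and a smallest total of 3053 counts for any of the 49 genes set the precision. Replicates of a group differed by more than counting noise in all 36 pairs (chi-square per degree of freedom of at least 4.09), so all were kept.

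The genes and lists were chosen with earlier results of these data known. Values in every library are given for 14 genes set by role and for up to 4 genes each way with the smallest adjusted p in a comparison, 23 in all, and 2 further genes, Rrp12 and Nop2, were added after their values were seen. Other lists are described by counts, medians and up to 4 genes with the smallest adjusted p. Same-numbered libraries of 1 genotype deviated together in 22 of 24 pairs (correlation over 0.1), and in all pairs that enter the LPA comparisons. Differently numbered libraries of 1 genotype did so in 10 of 72 pairs. Across genotypes 2 of 36 same-numbered and 42 of 108 differently numbered pairs did, the latter with correlations of up to 0.67. Numbers therefore did not pair libraries across genotypes, although some libraries of the 2 genotypes deviated together. The pairing comes from these values, since the labels do not say what a number marks. Alternatives were DESeq2 1.42.0, library totals, a stricter filter, fits of only the groups compared, thinned counts, replicate blocks and leaving out each library. The last was joined, after the data were seen, by leaving out both WT libraries numbered 3. The scripts were tested on simulated data. Sequences are from RefSeq (GRCm38.p6) and exon overlaps from GENCODE vM21.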

Additional observations from a re-analysis of the deposited data

Results flagged for a closer look

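In 10 of the 138 sets of 4 libraries examined for a value far from the other 3, one stood apart. Chance sets 1 library apart in about 1 in 20 such groups. In WT LPA libraries, Wdr43 was lowest in the third at 50.6 CPM against at least 58.5 in the others, and Rrp1b was lowest in the same library at 7.96 CPM against at least 8.75. In WT LPS libraries Bop1 was highest in the first, at 68.6 CPM with the next at 55.4. Fbl was highest in the first WT untreated library at 12.98 CPM, with the next at 11.7.

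In KO cells the second library was the one apart in 4 of these sets. Mdn1 was at 41.2 CPM in the second KO LPA library with the next at 28.8, Nop56 was at 21.5 CPM there with the next at 16.9 and at 19.8 CPM in the second KO untreated library with the next at 16.0, and Fbl was at 11.2 CPM in the second KO LPS library with the next at 14.7. In the other KO LPS libraries, Nol11 was lowest in the fourth at 35.7 CPM with the next at 40.8, and Polr1b was highest in the third at 9.64 CPM with the next at 8.08.

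The LPA change differed between KO and WT cells, by the test of the difference itself, for 12 genes described above. The log2 difference, KO minus WT, was −0.87 for Nol10, −0.81 for Myc, −0.67 for Wdr43, −0.66 for Mdn1, −0.64 for Nop58, −0.62 for Bop1, −0.60 for Polr1a, −0.59 for Utp20, −0.55 for Utp18, −0.52 for Nol11 and −0.29 for Utp11, and it was 0.33 for Polr1c. Each is a difference between changes measured within a genotype, and depth, lanes and genotype cannot be told apart. With all libraries thinned to the smallest total, 16 of the 49 genes passed the test below 0. Shares over all genes for the thinned counts are not given here.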

How the results depend on the processing

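Of 106 called results for single genes, alternatives left 1749 values with the same call and 62 with the same sign but no call. A further 9 values took the opposite sign, whether called or not, and 16 of 124 uncalled results were called by some alternative. Library totals in place of TMM reversed the following log2 values. With LPS they gave −0.24 for Fbl and −0.49 for Pes1 in WT and −0.12 for Fbl and −0.49 for Pes1 in KO cells. For LPS against LPA in WT they gave −0.0042 for Bop1, −0.30 for Fbl, −0.054 for Mdn1, −0.36 for Ncl, −0.18 for Nol11, −0.27 for Nop56, −0.49 for Polr1a, −0.18 for Utp18 and −0.22 for Utp20. Library totals also gave 14 genes higher and 22 lower with LPS in WT, 18 and 18 in KO cells, 5 and 29 for LPS against LPA, 0 lower in KO than in WT with LPS, and 2 above 0 for the difference of the LPA change. Fitting only the groups compared gave 2 genes higher in KO with LPA and 0 lower with LPS. Thinned counts gave 0 above 0 for the LPA difference. The replicate block within genotype gave 3 above 0 for it, against 1 without the block. In a fit of 2 groups, where the numbers pair no libraries, the block gave 18 genes lower in KO with LPA and 0 with LPS. With both WT libraries numbered 3 left out, chosen after the data were seen, the LPA difference was above 0 for 2 genes and below it for 20. Leaving out 1 library gave 0 to 3 above and 11 to 22 below 0 for the LPA difference, 2 to 4 higher in KO with LPA, and 0 to 1 higher and 0 to 1 lower in KO with LPS. The single call of KO with LPS, Rrp7a, was lost without WT LPS 3, KO LPS 3 or KO LPS 4. The block changed no other count by over 1.5 times. DESeq2 gave 26 genes higher and 4 lower with LPA in WT cells. Over all genes, the count for KO against WT with LPS moved from 80 higher and 250 lower to 145 and 436 with DESeq2, 381 and 106 under library totals, 30 and 101 with only the groups compared and 0 and 0 with the block. For LPA in KO cells it moved from 181 higher and 123 lower to 212 lower with DESeq2 and to 307 and 247 with the block. For the LPS difference it moved from 0 to 4 higher and 13 lower with DESeq2, and for LPS in WT from 4709 higher and 5050 lower to 2387 and 7847 under library totals, in KO from 4554 and 4985 to 2428 and 7627, and for LPS against LPA from 4379 and 4769 to 1979 and 8087. The cause of these changes was not tested beyond the shift of all genes that library totals bring.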
